A study of Mus musculus with 16 samples.

Results

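The matrix metalloproteinases (MMPs), the ADAMTS proteinases with their ADAMTS-like relatives, and the tissue inhibitors of metalloproteinases (TIMPs) were examined across tenogenic induction of mouse cells in culture and in Achilles tendon lacking *Scx*. Members were taken by symbol, and 51 genes were found: 23 MMP, 19 ADAMTS, 5 ADAMTS-like and 4 TIMP genes. Of these, 46 were among the 29629 genes of the single-cell table, and all 51 were among the 47729 genes of the bulk table. *Mmp25*, *Mmp1a*, *Mmp7*, *Adamts13* and *Mmp27* are not listed in the single-cell table given here.

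Single cells came from induced pluripotent stem cells (iPSCs) of the *ScxGFP* reporter mouse, in which GFP marks expression of scleraxis (*Scx*), a basic helix-loop-helix transcription factor of tendon cells. A single iPSC clone was carried forward by the study, so the plates are samples of 1 line. Mesodermal cells before TGF-β2 are called T0, and the same culture is called T3 after 3 days, T6 after 6 days and T9 after 9 days with recombinant human TGF-β2 at 10 ng/ml. The labels name these cells mesodermal cells (T0), tendon progenitors (T3) and tenocytes (T6 and T9). Per the study's methods, T0 cultures were released with trypsin alone, and the later cultures with collagenase followed by trypsin. Digestion, days in culture and TGF-β2 therefore cannot be told apart between T0 and the other times. Each time point was sorted into 3 plates of 384 wells and counted by CEL-Seq2, in which each molecule gives 1 unique molecular identifier (UMI) near its 3′ end, so that values do not depend on transcript length. Bulk RNA-seq was made from Achilles tendon of 2-week-old littermates, with 2 wild-type libraries (Scx-Wt) and 2 from mice homozygous for the *Scx* knockout (Scx-homoKO). Nothing in the labels says that the 3 plates came from separate cultures, so p-values over plates measure the spread between plates.

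These genes are the main extracellular enzymes that cut collagens, proteoglycans and the proteins attached to them. MMPs are made as inactive zymogens and include soluble collagenases, gelatinases and stromelysins as well as enzymes held in the cell membrane. ADAMTS proteinases include the procollagen N-proteinases, which trim fibrillar procollagens, and the proteoglycanases, which cut aggrecan and versican, whereas ADAMTS-like proteins resemble them but lack the catalytic domain. TIMPs bind the active site of the enzymes, and TIMP-2 also takes part in the activation of pro-MMP-2 by membrane-bound MMP-14. In tendon the balance of these enzymes and inhibitors is known for its role in the turnover and growth of collagen fibrils.

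The 12 plates held 1921125 to 4657093 UMIs, with 4594 of 4608 wells at 200 genes or more, and the bulk libraries held 11188270 to 12398560 counts. Levels are given in CPM, the usual counts-per-million scale, relative to all counts of a library. The plates fell into a set of 7 with more reads outside annotated features (T0 plates 1 to 3, T3 plate 2, T6 plates 1 and 3, T9 plate 3) and a set of 5 with fewer, by the study's own mapping summary. No T0 plate was in the latter, so some results against T0 are also given within the 7 plates. T3 plate 2 and T9 plate 3 are the only plates of their times there, so those fits have no replicate at T3 or T9. In single cells, 8 of 8 tenocyte markers rose from T0 to T9, from a summed level of 468 ± 42.1 to 23680 ± 13988 CPM (SD, n = 3 plates). In bulk, *Scx* counts were 1151 and 996 in Scx-Wt and 287 and 296 in Scx-homoKO, so its transcript was lower but still counted in both knockout libraries.

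The members covered a wide range of levels. At T9 *Mmp2* and *Timp2* led with 728 ± 271 and 373 ± 145 CPM, followed by *Mmp14* at 200.01 ± 161 CPM and *Timp1* at 98.3 ± 16.1 CPM. At T0 the order was led by *Timp2* at 138 ± 0.631 and *Mmp14* at 106 ± 32.3 CPM, whose plates overlapped in range, with *Adamts1*, an aggrecan- and versican-cutting enzyme, at 75.4 ± 8.33 and *Mmp2* at 70.0 ± 3.12 CPM. After filtering on low counts 30 members were tested in single cells, and 16 listed members were too low, the highest of these being *Mmp15* with 57 UMIs over all plates. The collagenase genes listed (*Mmp13*, *Mmp8* and *Mmp1b*) together gave at most 1.10 CPM in any plate and 0 UMIs in all 3 T9 plates.

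**Figure D1:**
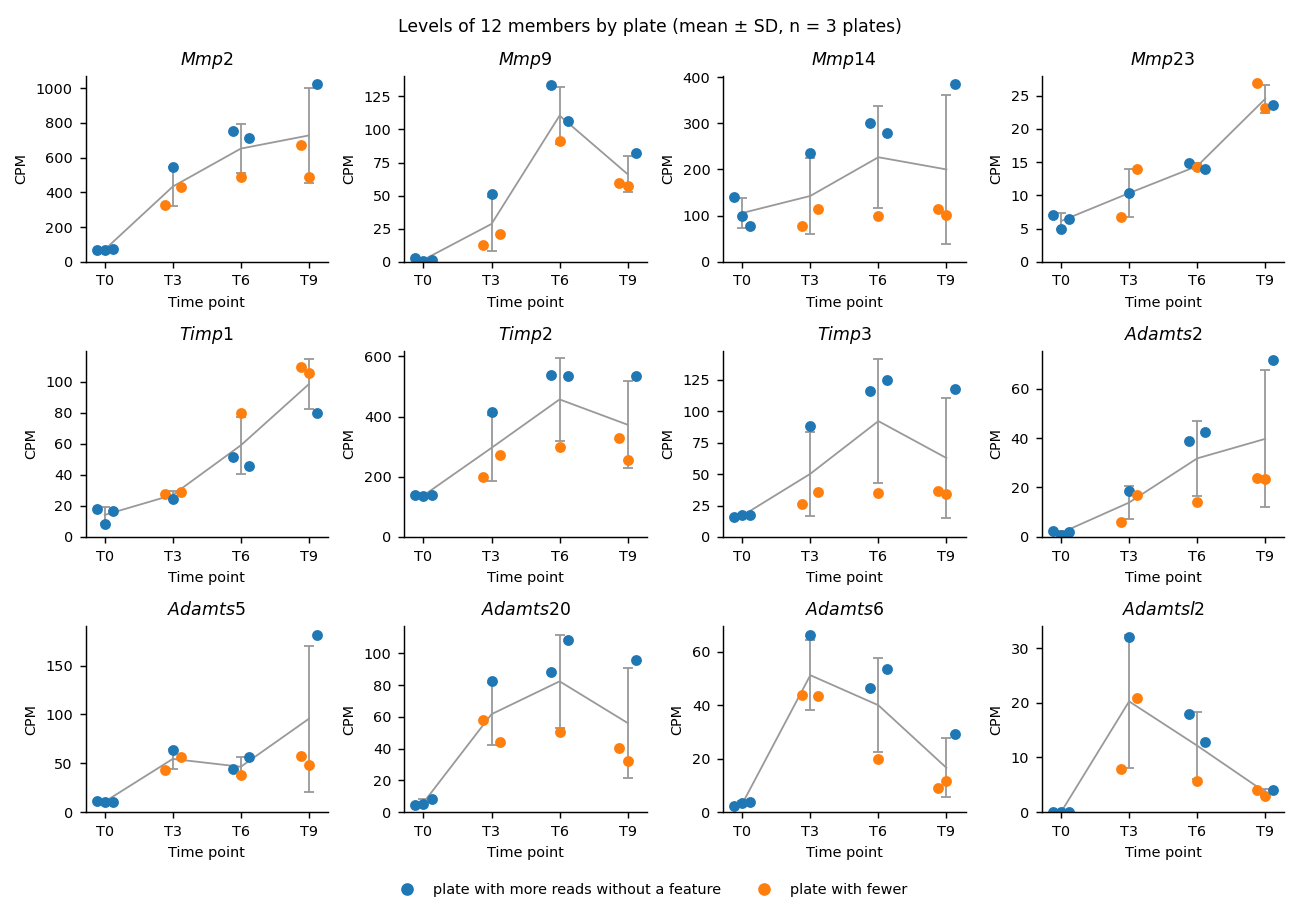
Level of 12 members in CPM (linear axes) at T0, T3, T6 and T9, with 1 point per plate and grey lines for the mean ± SD of 3 plates. Blue points are plates with more reads outside annotated features and orange points those with fewer. In all panels but those of *Mmp23*, *Timp1* and *Adamtsl2* the orange points at T6 and T9 lie below the blue ones.

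A group of 10 MMP genes, to which all 4 collagenases belong, lies in a cluster on chromosome 9 (GRCm38 chr9:7272514-7699585), and its members were at or near 0 in both data sets. Over all 12 plates none exceeded 22 UMIs, and over the 4 bulk libraries only *Mmp3* (stromelysin 1, 123 counts in all) exceeded 33 counts. *Mmp1a* and *Mmp1b* are close copies of each other, so their values of 0 or 1 cannot be assigned with certainty. The promoters of this cluster are shown here because of a short motif found only in this cluster among the members with a promoter sequence. The AP-1 motif TGANTCA (which reads the same on both strands) occurred within 250 bases before the start in 8 of the 39 windows of 36 members found in the RefSeq promoter table (GRCm38.p6), and in 6.75% of all 32851 windows. All 8 belonged to genes of the cluster and none to the 27 other windows. *Mmp2*, *Mmp9*, *Adamts5*, *Adamts6*, *Adamts16* and some other members have no window and could not be searched. Neighbouring paralogs share descent, so these 8 are not independent. In the 150 bases before the start of each gene, on the + strand, the motif is in capitals, for *Mmp3* at chr9:7445672-7445821 and for *Mmp13* (collagenase 3) at chr9:7272364-7272513.
Mmp3: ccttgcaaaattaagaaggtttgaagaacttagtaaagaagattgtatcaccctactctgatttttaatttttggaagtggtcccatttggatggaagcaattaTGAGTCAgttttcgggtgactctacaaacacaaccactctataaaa
Mmp13: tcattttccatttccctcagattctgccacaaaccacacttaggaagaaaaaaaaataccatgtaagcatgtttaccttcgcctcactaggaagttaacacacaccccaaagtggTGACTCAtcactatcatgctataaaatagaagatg
These letters are a description of the windows, and no binding was measured.

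Both gelatinases, which cut denatured collagen and basement membrane collagen, rose after TGF-β2. *Mmp2* (gelatinase A; GRCm38 chr8:92827291-92853420, + strand) was at 69.1, 67.4 and 73.5 CPM in the T0 plates, at 325, 545 and 430.0 CPM in the T3 plates, at 756, 489.7 and 711 CPM in the T6 plates, and at 670.3, 490.4 and 1024 CPM in the T9 plates. Every plate after TGF-β2 was above every T0 plate. Between T0 and T3 *Mmp2* rose by 2.84 in log2 units (SE 0.20, adjusted p = 2.13e-07, edgeR quasi-likelihood test with Benjamini-Hochberg adjustment, used for all adjusted p-values here, with all differences given as log2), and the T9 level was above T0 by 3.83 (SE 0.21, adjusted p = 8.7e-09). The steps from T3 to T6 (0.61, adjusted p = 0.0903) and from T6 to T9 (0.38, adjusted p = 0.346) did not pass the threshold of 0.05. The share of cells with at least 1 *Mmp2* UMI went from 39.1 ± 0.813% at T0 to 91.1 ± 4.39% at T9, and from 20.1% to 76.6% once each cell was thinned to 3000 UMIs. In the 14 wells under 200 genes no *Mmp2* UMI was counted.

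*Mmp9* (gelatinase B; chr2:164940780-164955850, + strand) started near the limit of detection, at 2.58, 0.926 and 1.08 CPM in the T0 plates. It reached 13.0, 51.6 and 21.3 CPM at T3, 134, 91.0 and 107 CPM at T6, and 59.2, 57.5 and 81.9 CPM at T9. No plate of one time overlapped the range of another, in the order T0, T3, T9 and T6. The rise from T0 to T3 was 4.34 (SE 0.41, adjusted p = 3.22e-06) and the rise from T3 to T6 was 2.01 (SE 0.30, adjusted p = 0.00206), while the lower T9 mean differed from T6 by -0.50 (adjusted p = 0.397). *Mmp9* was found in 431 of 1149 cells at T6, and the 10 cells with the most UMIs held 14.3% of them. After thinning to 3000 UMIs per cell, a UMI was found in 0.372% of T0, 5.28% of T3, 21.0% of T6 and 10.9% of T9 cells.

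*Mmp9* is also known as an enzyme of neutrophils, macrophages and osteoclasts, and markers of those cells were therefore counted. The neutrophil list (6 genes, 5 of them in the table) summed to 0 to 1.61 CPM in any plate, and the macrophage list (6 genes, 5 in the table) to 1.04 to 9.95 CPM, with *Adgre1* at 1 UMI in all plates together. The osteoclast list (6 genes, 5 in the table) summed to 2.78 to 15.2 CPM, with 3.34 ± 0.828 CPM at T0 and 12.4 ± 3.03 CPM at T9. Both of its 2 tested genes were higher at T9 at an unadjusted p under 0.05 (edgeR), and 1 passed the adjusted threshold. Of its members *Ctsk*, which fibroblasts also express, rose from 0.774 ± 0.207 CPM at T0 to 6.35 ± 2.83 CPM at T9. Whether any of these cell types supplied the *Mmp9* UMIs was not tested. In Achilles tendon *Mmp9* had only 4 and 13 counts in Scx-Wt and 11 and 0 in Scx-homoKO.

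The other MMPs changed less. *Mmp14* (membrane-type 1 MMP; chr14:54431612-54445364, + strand), which activates pro-MMP-2 at the cell surface, was at 140.4, 99.8 and 76.7 CPM at T0, at 301, 99.3 and 279 CPM at T6 and at 114, 101.2 and 385 CPM at T9. Its T9 and T6 plates with fewer reads outside features lay within the T0 range, while the plates of the other set lay above. *Mmp14* was higher at T9 than at T0 by 1.30 (SE 0.41, adjusted p = 0.0200). That call was lost without T0 plate 2, T0 plate 3 or T9 plate 3 (adjusted p up to 0.129). It was also lost with scaling by total UMIs (0.92, adjusted p = 0.198). Within the 7 plates, where T9 has only 1 plate, the *Mmp14* difference was larger, at 2.04. *Mmp23*, a membrane-anchored MMP of unusual structure, was at 7.09, 4.86 and 6.46 CPM at T0, at 14.8, 14.3 and 14.0 CPM at T6 and at 26.9, 23.1 and 23.5 CPM at T9. Its T9 plates were close together and above all earlier plates, and it rose from T0 to T9 by 2.51 (SE 0.29, adjusted p = 1.09e-05). *Mmp11* (stromelysin 3), *Mmp16* and *Mmp17* (membrane-type MMPs) did not pass the T9 against T0 test, with fitted differences of 0.06, -0.15 and -0.69. *Mmp11* alone of these passed from T0 to T3 (0.70, adjusted p = 0.0241). That call was lost without any 1 of the T0 plates, T3 plate 2 or T3 plate 3 (adjusted p up to 0.0887). It was also lost with no filter on low counts (adjusted p = 0.0608) and with scaling by total UMIs (adjusted p = 0.275). Within the 7 plates, where T3 has only 1 plate, this *Mmp11* difference was 0.92.

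Of the 4 inhibitors, 3 were tested from T0 to T9 and all of these rose, when 23.6% of all tested genes did. *Timp1* (chrX:20870166-20874735, + strand), whose protein binds pro-MMP-9, was at 17.8, 8.34 and 16.4 CPM at T0. After TGF-β2 it was at 27.6, 24.3 and 29.3 CPM (T3), 51.2, 79.9 and 45.9 CPM (T6) and 109, 106 and 79.9 CPM (T9). The groups T0, T3 and T6 did not overlap, and T9 met T6 at 79.9 CPM only. *Timp1* rose from T0 to T9 by 3.33 (SE 0.38, adjusted p = 9.02e-06). Its smaller rise from T0 to T3 (1.18, adjusted p = 0.0299) was lost when the plate set was added as a covariate (adjusted p = 0.0847), within the 7 plates, and without T0 plate 2, T0 plate 3, T3 plate 1 or T3 plate 3 (adjusted p up to 0.119). *Timp2* (chr11:118301069-118355740, − strand) was at 138, 137 and 138 CPM at T0, at 539.8, 298 and 534 CPM at T6 and at 329, 254 and 535 CPM at T9. All later plates were above T0, and it rose from T0 to T9 by 1.88 (SE 0.22, adjusted p = 1.06e-05). *Timp3* (chr10:86300372-86349506, + strand), which stays bound to the matrix and also inhibits ADAMTS enzymes, rose from 16.9 ± 1.11 CPM at T0 to 62.8 ± 47.6 CPM at T9 (2.27, SE 0.44, adjusted p = 0.000834). *Timp3* was at 116 and 125 CPM in T6 plates 1 and 3 and at 35.3 CPM in T6 plate 2, and likewise at 118 CPM in T9 plate 3 against 36.4 and 34.4 CPM in the other two. *Timp4* had 6 UMIs in all plates together and was not tested.

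Summed over the family, MMP UMIs came to 260.2 ± 30.3 CPM at T0 and 1072 ± 469 CPM at T9, and TIMP UMIs to 169 ± 4.76 and 534 ± 176 CPM. The T0 plates had 0.655 ± 0.0739 TIMP UMIs per MMP UMI, the T3 plates 0.539 ± 0.0211, the T6 plates 0.558 ± 0.0213 and the T9 plates 0.513 ± 0.0502. The ranges of T3, T6 and T9 overlapped, and all T0 plates were above them, since the lowest T0 plate was at 0.585 and the highest later plate at 0.581. *Mmp2* made up 27.2 ± 3.92% of MMP UMIs at T0 and 69.0 ± 5.24% at T9. Among the inhibitors, the share of *Timp1* was 8.35 ± 2.84% at T0 and 20.2 ± 8.28% at T9, and that of *Timp2* was 81.6 ± 1.96% and 68.9 ± 4.33%. Transcript ratios say nothing of protein amounts or of zymogen activation.

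**Figure D2:**
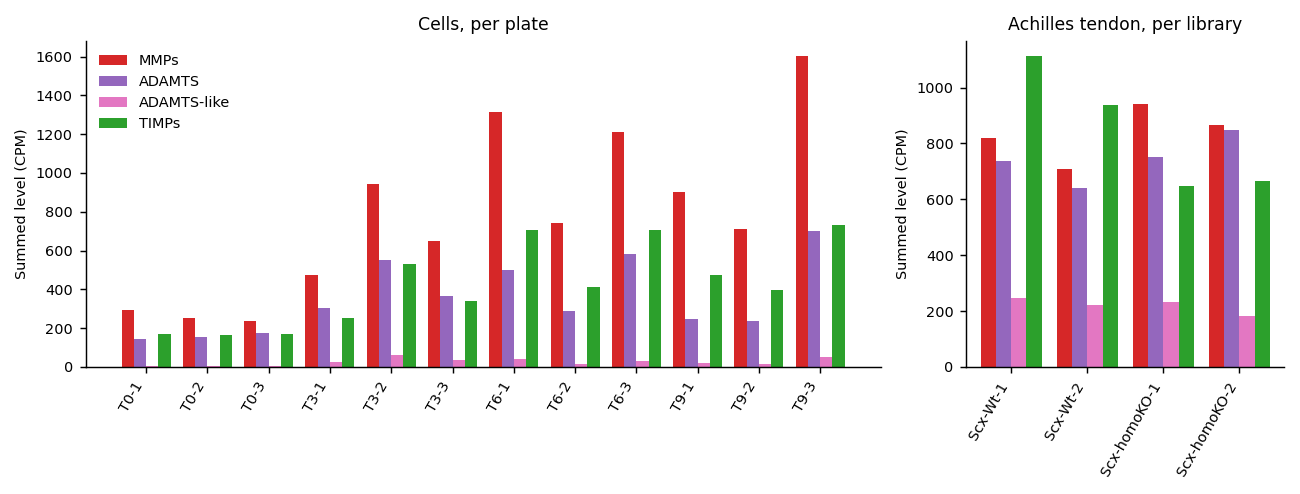
Summed CPM of the MMP (red), ADAMTS (purple), ADAMTS-like (pink) and TIMP (green) genes, in bars for each of the 12 plates on the left and each of the 4 Achilles tendon libraries on the right. The MMP and TIMP bars of every later plate are taller than those of the T0 plates, and the TIMP bars of both Scx-homoKO libraries are lower than those of Scx-Wt.

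Of the ADAMTS genes 11 of 16 tested rose from T0 to T9 and none fell, when 23.6% of all tested genes rose and 21.6% fell. Of the procollagen N-proteinases, *Adamts2* (chr11:50602084-50807573, + strand) was at 2.36, 0.695 and 1.88 CPM at T0. After TGF-β2 it was at 6.25, 18.4 and 17.1 CPM (T3), 38.6, 14.3 and 42.3 CPM (T6) and 23.9, 23.4 and 71.6 CPM (T9). It rose from T0 to T3 by 3.28 (adjusted p = 0.000389) and was above T0 by 4.95 at T9 (SE 0.51, adjusted p = 3.69e-06). All plates after TGF-β2 were above those of T0. *Adamts3*, of the same role, rose from T0 to T9 by 2.63 (adjusted p = 0.00184), and *Adamts14* was too low to be tested, with 45 UMIs.

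Of the proteoglycanases, 4 of 6 tested rose from T0 to T9 and none fell, against 23.6% and 21.6% of all tested genes. *Adamts5*, a main aggrecanase of mouse cartilage, was at 11.6, 10.4 and 9.96 CPM at T0. After TGF-β2 it was at 43.2, 63.7 and 56.4 CPM (T3), 44.3, 38.2 and 56.9 CPM (T6) and 57.0, 47.9 and 182 CPM (T9). The later plates overlapped one another and were all above T0, with a T9 against T0 difference of 3.54 (SE 0.33, adjusted p = 1.65e-06). *Adamts20*, a versican-cutting enzyme, went from 5.99 ± 2.10 CPM at T0 to 61.7 ± 19.4 CPM at T3 (3.58, adjusted p = 4.52e-06) and was at 56.1 ± 34.3 CPM at T9. *Adamts15* and *Adamts9*, also versican-cutting, were higher at T9 by 2.56 (adjusted p = 0.000728) and 1.10 (adjusted p = 0.00895), and *Adamts9* no longer passed with scaling by total UMIs (0.66, adjusted p = 0.214). *Adamts1* (70.2 to 85.0 CPM at T0, 50.5 to 135 CPM at T9) and *Adamts4* (3.77 to 4.86 CPM at T0, 2.17 to 14.6 CPM at T9) did not pass, with fitted differences of 0.49 and 0.95. These differences were larger, at 1.01 and 1.91, within the plates with more reads outside annotated features, where T9 has no replicate.

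Of the ADAMTS genes grouped as fibrillin-associated and other, 4 of 6 tested rose from T0 to T3, when 17.0% of all tested genes rose. Among these calls, that on *Adamts16*, rests on 6 UMIs at T3 and was lost without any 1 of the T0 plates, T3 plate 1 or T3 plate 3 (adjusted p up to 0.134), with scaling by total UMIs and within the 7 plates (adjusted p = 0.176). *Adamts6*, a relative of *Adamts10* that acts on fibrillin microfibrils, was at 2.15, 3.47 and 3.77 CPM at T0. After TGF-β2 it was at 43.7, 66.3 and 43.6 CPM (T3), 46.3, 20.04 and 53.5 CPM (T6) and 8.96, 11.6 and 29.2 CPM (T9). It rose from T0 to T3 by 4.24 (SE 0.38, adjusted p = 1.85e-06), and its T9 level stayed above T0 (2.81, adjusted p = 4.97e-05), while the T9 against T6 difference of -1.07 had an adjusted p of 0.113. *Adamts18* and *Adamts19* had means in the order T0, T9, T3 and T6, rising from T0 to T3 by 4.53 (adjusted p = 5.33e-05) and 3.39 (adjusted p = 5.1e-05). *Adamts16* was at 0 UMIs in all T0 plates, at 0.521, 0.368 and 1.39 CPM at T3 and at 6.14, 4.77 and 9.51 CPM at T6. Against a floor of 3 UMIs over the T0 plates, *Adamts16* was at least 29.7-fold higher at T6 and at least 26.7-fold higher at T9. *Adamts12*, which cuts cartilage oligomeric matrix protein, was the only member to fall from T0 to T3 by this test (-3.21, SE 0.80, adjusted p = 0.00715), with 2.79, 3.94 and 6.73 CPM at T0 against 0, 1.11 and 0 CPM at T3. The call on *Adamts12* was lost within the 7 plates (adjusted p = 0.0843).

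Of the ADAMTS-like genes, 4 of 4 tested were higher at T9 than at T0, when 23.6% of all tested genes were. *Adamtsl2*, whose protein binds fibrillin and latent TGF-β binding protein, had 0 UMIs in all T0 plates and 7.81, 32.1 and 20.9 CPM at T3, 17.9, 5.73 and 12.8 CPM at T6, and 4.07, 2.89 and 3.98 CPM at T9. Its means went down from T3 to T9, and its T9 plates lay below all T3 and T6 plates. Set against that floor, T3 was at least 91.3-fold higher, T6 at least 53.4-fold higher and T9 at least 15.5-fold higher. *Adamtsl3* (chr7:82335694-82614450, + strand), also known as punctin-2, had 1 T0 plate at 0.215 CPM and the other two at 0, and 3.64, 2.95 and 4.53 CPM at T3 and 6.25, 2.25 and 11.3 CPM at T9. It rose by 5.21 from T0 to T3 (adjusted p = 0.000457) and by 6.22 from T0 to T9 (adjusted p = 3.38e-05), and both fits rest on 1 UMI at T0. *Adamtsl1* rose from T0 to T9 by 3.50 and *Adamtsl4* by 1.84, and the call on *Adamtsl4* was lost without T0 plate 1 and with scaling by total UMIs (adjusted p up to 0.0542).

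Counted over all roles, from T0 to T3 18 of 30 tested members rose and 1 fell, when 17.0% of the 13372 tested genes rose and 16.2% fell. The median change was 1.398 over the members and 0.012 over all genes. From T3 to T6 3 members rose (*Mmp9*, *Adamts12* and *Adamts16*), against 2.61% of all genes higher and 1.63% lower, and of these only *Mmp9* passed in every alternative. *Adamts12* and *Adamts16* lost the call without T3 plate 1, T3 plate 3, T6 plate 1 or T6 plate 3, and *Adamts16* also without T3 plate 2 (adjusted p up to 0.156). Both lost it with scaling by total UMIs, and *Adamts12* also with the plate number as a block (adjusted p = 0.0771) and within the 7 plates (adjusted p = 0.188). From T6 to T9 no member passed the edgeR test, with 0.935% of genes higher and 0.688% lower. In that step 11 members had an unadjusted p under 0.05, and DESeq2 called 3. The shares of all genes at that cut and under DESeq2 were not set beside these counts.

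From T0 to T9 22 of 30 members rose and none fell, when 23.6% of all genes rose and 21.6% fell. The median was 2.53 over the members and -0.016 over all genes. All 22 also had positive differences within the 7 plates with more reads outside features, where T9 has only 1 plate. The scale matters to the balance of calls over all genes. With total UMIs in place of TMM scaling the median of all genes moved to -0.21 from T0 to T3, -0.25 from T6 to T9 and -0.49 from T0 to T9. The share of calls that were higher went from 51.3% to 39.1%, from 57.6% to 30% and from 52.1% to 28.2% in these comparisons. On that scale 14 members rose and 1 fell from T0 to T3, and 19 rose and none fell from T0 to T9. The direction of the called members therefore did not turn.

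**Figure D3:**
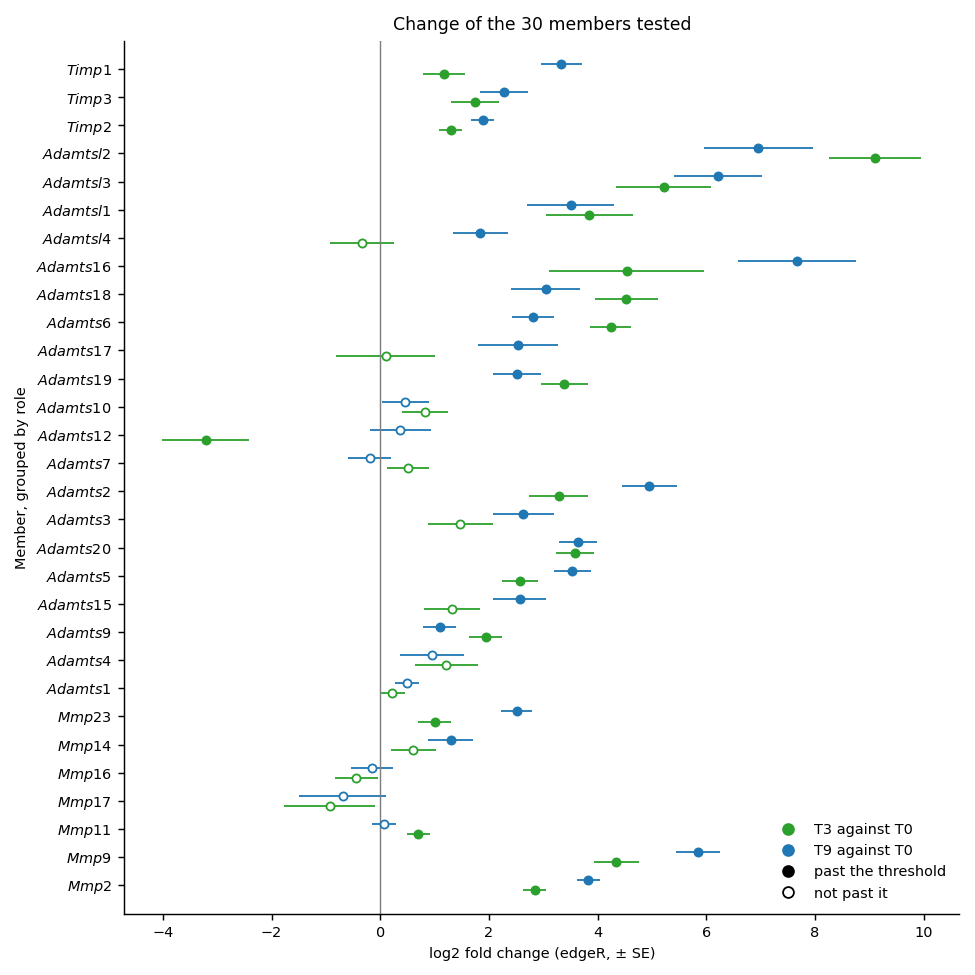
Log2 fold change of the 30 tested members from T0 to T3 (green) and from T0 to T9 (blue), grouped by role, with bars for the SE of the edgeR fit. Filled points passed the adjusted p threshold of 0.05, for 19 members at T3 and 22 at T9, and the values of *Adamtsl2* and *Adamts16* depend on the prior count of the fit because their T0 plates hold 0 UMIs.

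A set of other genes of extracellular proteolysis was read beside the members. Of 12 further regulators of proteolysis at the cell surface, 11 were tested from T0 to T9 and 9 rose, when 23.6% of all tested genes did, among them *Pcsk5* (4.35), a proprotein convertase, *Serpine2* (2.81), a serine proteinase inhibitor, and *A2m* (2.35), a broad proteinase inhibitor. *Plaur*, the urokinase receptor, fell from T0 to T3 by 4.14. Of the substrates, 7 of 9 tested rose from T0 to T9 and 1 fell, with elastin (*Eln*) at 11.75 from 5 UMIs at T0, *Col1a2* at 6.37, *Col1a1* at 5.83 and *Col3a1* at 4.12, while *Col2a1* was at -4.07. Among the ADAM sheddases 3 of 7 rose (*Adam33* 5.67, *Adam15* 3.30, *Adam9* 0.77), and among the tolloid and meprin proteinases with their enhancers 1 of 3 (*Pcolce* 0.66), shares to be read against the same 23.6%. The tenocyte marker list noted above and a parietal endoderm list (7 of 7 higher, from 991 ± 86.4 to 7955 ± 2762 CPM) moved in the same direction as most members, while epithelial markers fell in 5 of 6. The parietal endoderm list, which includes *Sparc* and *Col4a1*, also summed to 28416 ± 28.6 CPM in Scx-Wt Achilles tendon (SD, n = 2 libraries). These sums do not give the level of each gene of the list, and whether such cells were present was not tested. Endothelial markers, of which 2 of 2 tested rose, went from 13.6 ± 2.25 to 64.1 ± 30.9 CPM, and adipocyte markers, of which the only 1 tested rose, from 0.446 ± 0.387 to 40.8 ± 15.1 CPM. The part of the cell types named by these lists in the members' changes was not tested.

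Within the plates of T6 and T9, 302 cells had a UMI of *Tnmd*, a membrane protein of mature tenocytes, and 1994 had none. These groups were compared plate by plate. *Tnmd*-positive cells were deeper, with median UMIs of 7734 to 12520 per plate against 7030 to 10071 in the other cells of the same plates, higher in all 6. Of 28 tested members 3 were higher and 1 lower in *Tnmd*-positive cells, when 1.47% of tested genes were higher and 1.11% lower.

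*Timp2* was at 735, 409.7 and 629 CPM in the *Tnmd*-positive cells of the T6 plates and 494, 277 and 523 CPM in the other cells, and at 414, 355 and 692 CPM against 307, 239.6 and 515 CPM at T9. It was higher in 6 of 6 plates, by 0.46 (SE 0.07, adjusted p = 0.000252), and by 0.40 after thinning (adjusted p = 0.00384). *Timp1* was at 70.8, 103 and 71.4 CPM in *Tnmd*-positive and 46.5, 75.4 and 43.0 CPM in other cells at T6, and at 123, 227 and 125 CPM against 106, 88.0 and 74.1 CPM at T9. It was also higher in 6 of 6 plates (0.68, SE 0.14, adjusted p = 0.00466), but did not pass after thinning (0.56, adjusted p = 0.172) or without T9 plate 2. *Adamts2* was lower in *Tnmd*-positive cells in 6 of 6 plates, at a mean of 15.0 against 38.9 CPM (-1.29, SE 0.24, adjusted p = 0.00186), and did not pass after thinning (-1.17, adjusted p = 0.0988). *Adamtsl3* was higher in 6 of 6 plates, at a mean of 14.4 against 4.40 CPM (1.59, adjusted p = 0.0309), from 1 to 13 UMIs per plate in the positive cells. That call was lost without T6 plate 1, T6 plate 3 or T9 plate 3. *Mmp2* (-0.06) and *Mmp9* (-0.09) had adjusted p-values of 0.859 and 0.919.

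**Figure D4:**
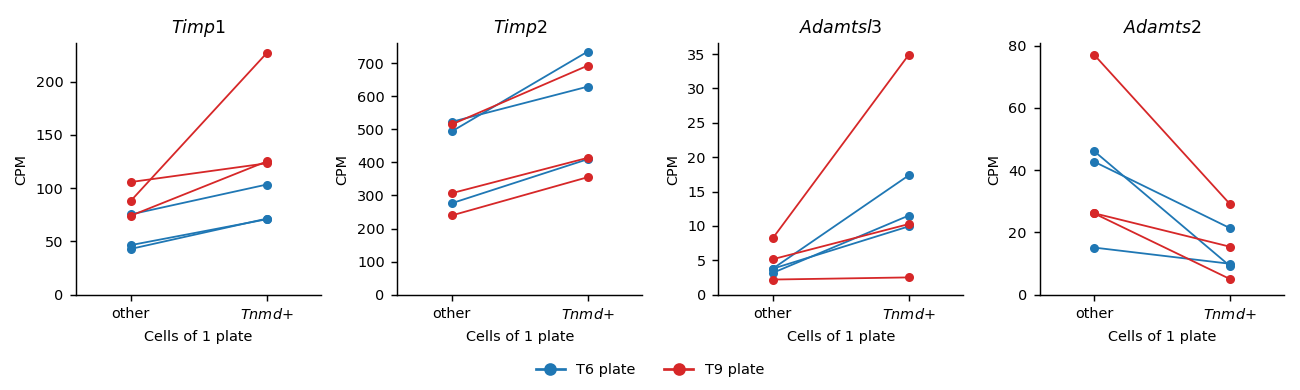
CPM of *Timp1*, *Timp2*, *Adamtsl3* and *Adamts2* in *Tnmd*-positive and in other cells, joined by a line for each of 6 plates (blue for T6, red for T9). The lines of the first 3 genes go up and those of *Adamts2* go down in all 6 plates.

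In Achilles tendon the highest levels per transcript length, over the 4 libraries, were those of *Timp2* (181 FPKM, counts scaled for exon length and library total), *Mmp2* (131), *Mmp23* (49.8), *Timp1* (41.3), *Adamts2* (30.2) and *Mmp14* (29.9). *Mmp9* was at 0.163 on this scale, and of the collagenases *Mmp1a* and *Mmp1b* had no counts. Of 38 tested members 3 were higher and 5 lower in Scx-homoKO, when 1.77% of 14602 tested genes were higher and 2.07% lower. An unadjusted p under 0.05 was reached by 19 members. The share of all genes at that cut was not counted. Such counts, here and for the lists below, therefore have no background to be read against. The median difference was -0.14 over the members and -0.0042 over all genes. In bulk tissue, fewer cells of a type and less RNA per cell cannot be told apart. Marker lists differed between the groups too. Tenocyte markers summed to 152281 to 165311 CPM in Scx-Wt and 72056 to 83068 CPM in Scx-homoKO (5 of 8 lower), chondrocyte markers to 732 to 801 against 31.8 to 53.3 CPM (4 of 7 lower) and adipocyte markers to 1073 to 2437 against 344 to 668 CPM (2 of 5 lower). Skeletal muscle markers summed to 30857 to 56196 against 72874 to 76490.2 CPM, with 0 of 6 called by edgeR and 3 at an unadjusted p under 0.05. Endothelial markers summed to 856 to 865 against 543 to 643 CPM (1 of 6 lower), and epithelial markers to 2.95 to 3.34 against 12.6 to 23.2 CPM (2 of 3 higher). Their part in the differences below was not tested.

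The 3 members higher in Scx-homoKO belonged to the fibrillin-associated and other ADAMTS genes. *Adamts17*, whose loss is known to affect fibrillin microfibrils, was at 12.4 and 14.3 CPM in Scx-Wt and 37.5 and 40.3 CPM in Scx-homoKO. The groups were far apart and the libraries within them close (1.58, SE 0.20, adjusted p = 0.00271). *Adamts16* was at 7.87 and 4.16 CPM against 16.1 and 26.3 CPM (1.89, SE 0.36, adjusted p = 0.0212). *Adamts19* was at 11.1 and 10.0 CPM against 19.9 and 23.9 CPM (1.10, SE 0.24, adjusted p = 0.0346). The groups of both did not overlap, but the call on *Adamts16* was lost without the second Scx-Wt or the second Scx-homoKO library (adjusted p up to 0.0543), and that on *Adamts19* without either Scx-Wt or the second Scx-homoKO library (adjusted p up to 0.114) and with scaling by library size (adjusted p = 0.0571). *Adamts20*, at 18.7 and 28.9 against 41.1 and 59.1 CPM, was just outside the threshold (1.11, adjusted p = 0.0568).

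Among the 5 lower members *Adamtsl3* was at 37.7 and 32.1 CPM in Scx-Wt and 11.4 and 8.49 CPM in Scx-homoKO (-1.77, SE 0.22, adjusted p = 0.00220). *Adamts9* was at 43.2 and 44.3 CPM against 19.4 and 18.8 CPM (-1.15, SE 0.17, adjusted p = 0.00634). Both were low in each knockout library, and their calls held without any 1 library. *Timp4* (chr6:115241892-115252205, − strand), an inhibitor of narrow tissue distribution, was at 30.03 and 18.5 CPM against 7.58 and 7.64 CPM (-1.62, SE 0.27, adjusted p = 0.0117). *Mmp28* (epilysin; chr11:83440768-83463071, − strand) was at 18.2 and 16.4 CPM against 6.77 and 4.24 CPM (-1.61, SE 0.30, adjusted p = 0.0200). Neither pair of groups overlapped, but without the first Scx-Wt library the adjusted p was 0.0838 for *Timp4* and 0.0630 for *Mmp28*. *Adamts6* was at 5.99 and 9.06 CPM against 1.69 and 1.53 CPM (-2.18, SE 0.47, adjusted p = 0.0368), and this call was lost without the second Scx-Wt library or either Scx-homoKO library (adjusted p up to 0.257). *Timp3* exons overlap a gene on the other strand over 21.3% of their length, *Mmp28* exons over 12.03% and *Adamts9* exons over 9.18%, and the strand setting of the bulk counting is not given in the sources used here.

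The 4 TIMPs all had lower values in Scx-homoKO, of which *Timp4* alone passed. *Timp2* was at 929 and 791 CPM in Scx-Wt and 548 and 559 CPM in Scx-homoKO, groups that did not overlap, with a difference of -0.59 (SE 0.19, adjusted p = 0.132). *Timp1* (-0.44) and *Timp3* (-0.54) had adjusted p-values of 0.202 and 0.135. TIMP counts summed to 1024 ± 124 CPM in Scx-Wt and 656 ± 13.1 CPM in Scx-homoKO (SD, n = 2), and MMP counts to 764 ± 79.9 and 903 ± 54.5 CPM. *Mmp2* was at 432 and 349 CPM against 525 and 459.8 CPM (0.38, adjusted p = 0.311) and *Mmp14* at 202 and 158 against 162 and 191 CPM (0.03, adjusted p = 0.960).

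**Figure D5:**
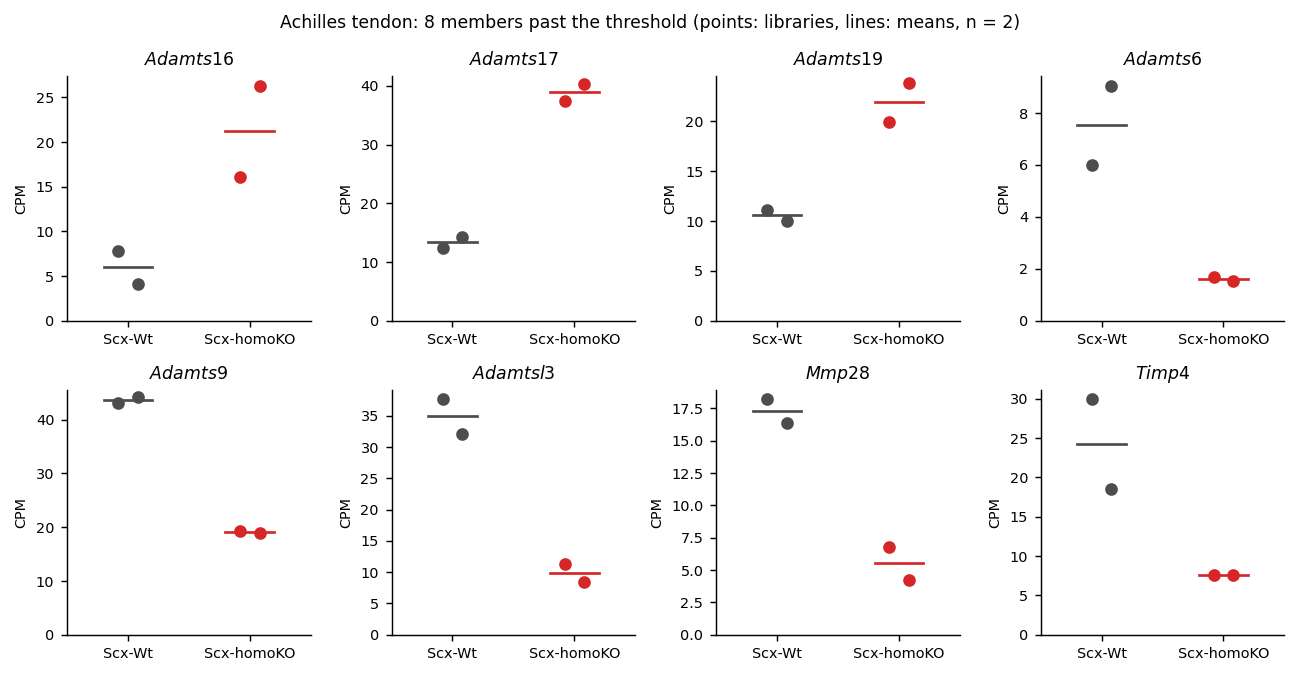
CPM in each Achilles tendon library (points) with the mean of 2 libraries (lines) for the 8 members past the threshold. In all 8 panels the Scx-Wt and Scx-homoKO points do not overlap.

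The promoters of 3 of the 5 members that were lower in Scx-homoKO are shown because *Scx* and other basic helix-loop-helix factors bind the E-box CANNTG (the same letters on both strands). The 150 bases before the start (RefSeq, GRCm38.p6) carry the E-box in capitals, at chr7:82335544-82335693 (+) for *Adamtsl3* and chr6:115252206-115252355 (−) for *Timp4*, whereas *Mmp28* at chr11:83463041-83463190 (−) has none in these 150 bases but 1 at 241 bases before the start. *Timp2*, which did not pass the test, is given for comparison at chr11:118355412-118355561 (−). The starts used here are those of RefSeq, whereas the gene bounds given above are those of GENCODE. By the GENCODE bounds all of the *Timp2* window and part of the *Mmp28* window lie inside the gene.
Adamtsl3: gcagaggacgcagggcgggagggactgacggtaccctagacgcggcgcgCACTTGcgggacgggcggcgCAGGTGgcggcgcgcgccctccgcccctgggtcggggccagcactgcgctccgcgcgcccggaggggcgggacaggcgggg
Timp4: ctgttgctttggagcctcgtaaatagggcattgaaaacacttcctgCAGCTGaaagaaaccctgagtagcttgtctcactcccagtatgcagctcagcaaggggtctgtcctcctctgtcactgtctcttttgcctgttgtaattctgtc
Mmp28: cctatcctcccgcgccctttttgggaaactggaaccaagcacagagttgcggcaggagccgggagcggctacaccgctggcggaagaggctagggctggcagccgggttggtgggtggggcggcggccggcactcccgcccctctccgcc
Timp2: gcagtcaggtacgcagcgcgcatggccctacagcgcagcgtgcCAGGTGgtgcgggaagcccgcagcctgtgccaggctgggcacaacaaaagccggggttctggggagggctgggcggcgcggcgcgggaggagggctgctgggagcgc
The first E-box base lies 101 and 81 bases before the RefSeq start in *Adamtsl3*, 104 bases before it in *Timp4* and 107 bases in *Timp2*. *Adamts9*, also lower, has 1 E-box at 159 bases, and *Adamts17*, which was higher in Scx-homoKO, has 3 at 231, 208 and 173 bases, so the motif was not limited to the members that were lower. The motif is common, since 66.2% of all windows of 250 bases hold it, and 28 of the 39 windows of members (71.8%) did so.

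Of the 8 members called in Achilles tendon, 6 were tested in single cells and all of these were higher at T9 than at T0. In that comparison 23.6% of all tested genes and 22 of the 30 tested members were higher. *Adamts6*, *Adamts9* and *Adamtsl3* were higher at T9 and lower in Scx-homoKO, while *Adamts16*, *Adamts17* and *Adamts19* were higher in both. At T9 *Adamts17* was above T0 by 2.54 (adjusted p = 0.0120), a call lost without T0 plate 2 or T9 plate 3 (adjusted p up to 0.0665). *Mmp28* and *Timp4*, with 4 and 6 UMIs over all plates, were not tested in single cells. Of the other lists in bulk, none of 11 regulators of proteolysis and none of 8 ADAM sheddases passed (5 and 2 at an unadjusted p under 0.05, edgeR). *Pcolce2*, an enhancer of procollagen C-proteinase, was lower by -2.24, and of 12 substrates *Eln* (2.32) and *Col3a1* (1.41) were higher and *Col2a1* (-5.09), *Acan* (-2.95) and *Comp* (-0.86) lower.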

How the data were processed

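The authors aligned reads to GRCm38 and deposited raw counts: UMI counts per gene and well (HISAT2 2.2.1, UMI-tools 1.0.1 and featureCounts, per the labels) and read counts per gene for bulk libraries (HISAT2 2.0.4, featureCounts 1.5.0). Wells with 200 genes or more were summed per plate, and 3 entries that name no gene (0.0642% of UMIs) were left out. Symbols, gene bounds and exon lengths came from GENCODE M21, and promoter starts from RefSeq. Counts were tested with edgeR 4.0.16 in R 4.3.3 (filterByExpr, TMM, quasi-likelihood, Benjamini-Hochberg over all tested genes, threshold 0.05), over the 12 plates, the 4 bulk libraries, or *Tnmd*-positive and other cells with plate as block. The script was tested on simulated counts. CPM used all counts of a library. The members and lists were chosen with earlier results of these data known. Members named were those called and the highest of each role, with others named after their values were seen, and for other lists up to 4 called genes by size of change. Doublets were not called beyond the study's sort, and the 384 well barcodes recur in every plate by design. Alternatives were DESeq2 1.42.0, its size factors, no filter, the plate set as covariate, the 6 plates compared alone, cells with 1000 genes or more, a replicate block, thinning and each library left out. Scaling by library size and the 7 plates alone were added after seeing the data.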

Additional observations from a re-analysis of the deposited data

How the results depend on the processing

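No member called in the fits above reversed under any alternative. Members not called were not checked in this way, and some of them did change sign from T0 to T9. *Mmp16* was at -0.15 above and at 0.58 within the 7 plates. *Mmp11* was at 0.06 above and at -0.39 with scaling by library size. The counts of members called under the alternatives are given here without the shares of all genes called under the same settings. They therefore do not tell a change of the members from a change of all calls. With library size scaling, for example, calls over all genes from T3 to T6 went from 349 higher and 218 lower to 162 and 137. The counts of members called moved over 1.5 times as follows. From T3 to T6 (3 called), DESeq2 called 6, no filter 7, the plate set as covariate 7 and library size scaling 1. From T6 to T9 (0 called), DESeq2 called 3, no filter 8, the plate set 7 and the 7 plates alone 2. In bulk (8 called), no filter called 14. For *Tnmd*-positive cells (4 called), thinning left 1 and leaving out the plate block (no replicate block) left 0. Leaving out 1 plate or library gave 15 to 19 calls from T0 to T3, 1 to 5 from T3 to T6, 0 to 6 from T6 to T9, 20 to 23 from T0 to T9, 6 to 9 in bulk and 3 to 4 for *Tnmd*. Where that leaves 1 bulk library in a group, the lone library is assumed to vary like the others. The cause was not tested. In their deviations, same-numbered plates correlated at -0.556 to 0.501 and plates of unlike number at -0.546 to 0.470. The plate numbers thus gave no sign of pairing, which does not exclude it. Same-numbered bulk libraries correlated at 0.0672, but with 2 libraries a group this value cannot decide whether they are pairs. With a replicate block 19, 2, 0 and 22 members were called over time and 11 in bulk. The 2 bulk libraries a group and the few UMIs of many members limit the precision, and the smallest difference that could be detected was not tested.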

Other observations

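*Mmp10* (stromelysin 2), too low to be tested, had 22 UMIs over all plates, and 14 of these were in 1 T0 cell. In the 14 wells under 200 genes *Timp2* had 3 UMIs, all in 1 well, and *Mmp2*, *Mmp9* and *Timp1* had none.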
